A study of Rattus rattus with 18 samples.

Results

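The arcuate nucleus of high-fat sedentary (HFS) rats was compared with that of chow sedentary (CS) rats across all expressed genes. The libraries were chosen by the group in their labels, and 6 of the 18 samples of the series belong to the comparison, 3 CS and 3 HFS. All 6 came from female Wistar rats (the labels give the organism as *Rattus rattus*), with 1 library per rat. CS rats ate standard chow. HFS rats ate a diet with 60% of its energy from fat. Both diets ran from weaning into adulthood, and the adult rats then lived singly for 4 weeks in cages without a running wheel. The study asked which transcripts of the nucleus go with diet-induced obesity and with voluntary running, and in a separate experiment what raising or lowering miR-211 does there. The tissue was a 1 mm punch from each hemisphere, and its RNA was sequenced from the 3′ end in bulk, so every value is an average over neurons, glia and vessel cells.

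The arcuate nucleus lies at the floor of the hypothalamus, beside the median eminence, where hormones and nutrients leave the blood easily. Its *Pomc* neurons release melanocortin peptides that lower feeding, and neighbouring neurons oppose them. Astrocytes, microglia and the tanycytes that line the ventricle surround these neurons, and in rodents on a fatty diet the glia of this region are known to react.

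Reads on genes numbered 5154977, 5634204 and 4680736 in CS replicates 1 to 3, and 5769107, 6373077 and 6322895 in HFS replicates 1 to 3. Every HFS library was deeper than every CS library, with means of 6155026 ± 335156 (SD, n = 3) and 5156639 ± 476736 (SD, n = 3) (exact two-sided permutation test, p = 0.1, the smallest that 3 against 3 can give). Genes with a read numbered 15421, 15561 and 15304 in CS, and 15618, 15608 and 15564 in HFS. The share of reads that aligned to several places was 20.4%, 20.2% and 20.6% in CS and 18%, 19.6% and 19% in HFS. It was lower in every HFS library (exact two-sided permutation test, p = 0.1). Reads outside genes made up 22.6% to 26.3% of a library, and the groups overlapped. The part of the alignment difference in the results below was not tested, and depth is taken up with the counts of genes.

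Levels are given as CPM, a gene's counts per 1000000 counts of its library, scaled for the make-up of each library. Before that scaling, 3 reads correspond to between 0.471 and 0.641 CPM at this depth. Reads were not independent molecules where PCR copied them, so small values carry counting error and more.

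The libraries were first set against each other by the Euclidean distance of their log2 CPM over all 11892 genes tested, which grows with every gene that differs. CS libraries lay 68.1 to 79 apart, with a mean of 72.5 ± 5.77 (SD over 3 pairs). HFS libraries lay 58.2 to 59.1 apart, with a mean of 58.6 ± 0.418 (SD over 3 pairs). The HFS libraries were close to each other and the CS libraries were not. Across the groups the 9 distances ran from 54.9 to 79, with a mean of 67.8 ± 7.92 (SD), which is less than the mean within CS. Without CS replicate 2 the order turned, with a mean of 74.6 across the groups and 70.6 for the 1 pair left within CS. With all libraries kept that pair, CS replicates 1 and 3, lay 68.1 apart.

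**Figure D1:**
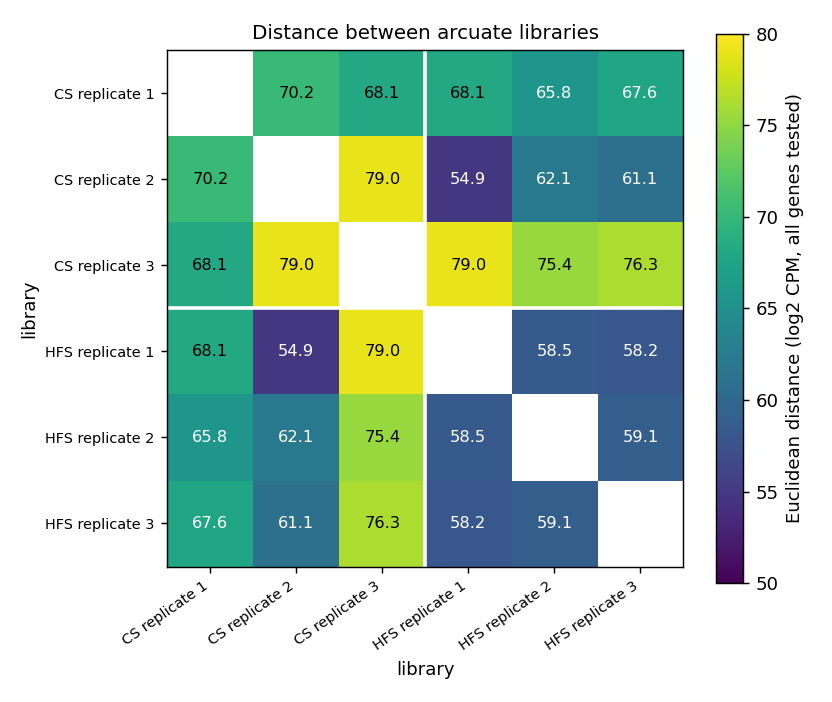
Euclidean distance of log2 CPM over all genes tested for each pair of the 6 libraries, with the value printed in each cell and white lines between the groups. The smallest distance of all, 54.9, joins CS replicate 2 and HFS replicate 1.

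CS replicate 2 stood on average 74.6 from the other CS libraries and 59.4 from the HFS libraries. CS replicate 3 stood 73.6 from the other CS libraries and 76.9 from the HFS libraries, and CS replicate 1 stood 69.2 and 67.2 away. CS replicate 2 was thus nearer to HFS than to its own group, CS replicate 3 was farther from every HFS library and from CS replicate 2 (75.4 or more) than from CS replicate 1 (68.1), and CS replicate 1 was about as far from both groups. Whether CS replicate 2 carries the right label was not tested, and every CS mean below includes it unless it is said to be left out. HFS replicates 1, 2 and 3 stood 58.4, 58.8 and 58.7 from their own group and 67.3, 67.8 and 68.3 from CS.

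The study's gene table for this comparison has a column for 4 of the 6 libraries. CS replicate 2 and HFS replicate 2 match none of its columns. Results are therefore given with all libraries and again without CS replicate 2 and HFS replicate 2. The second set rests on 2 CS and 2 HFS libraries, those with a column in that table. The columns do not settle which animals the study used to choose its genes, but they were animals of this experiment, so for genes of that table neither set is independent.

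Each gene was tested for a difference between HFS and CS with edgeR's quasi-likelihood test, in a fit that also held the 4 libraries of high-fat runners to share the estimate of the spread. A gene counts as called at an adjusted p (Benjamini-Hochberg) under 0.1. Of the 11892 genes tested, 1 was called (0.00841%), and the smallest adjusted p after it was 0.974 by edgeR with Benjamini-Hochberg adjustment. At an unadjusted p under 0.05, 309 genes were higher in HFS (2.6%) and 223 were lower (1.88%). With no difference between the groups, a share of about 0.05 of the genes would pass, and these 532 genes make up less. All 3 HFS libraries lay above all 3 CS libraries for 572 genes (4.81%) and below them for 584 genes (4.91%). With no difference, 3 against 3 libraries lie apart in either direction with a probability of 0.1, and these 1156 genes make up slightly less. With all libraries, neither count thus exceeds what no difference would give. Of the genes at an unadjusted p under 0.05, 218 higher and 170 lower genes had groups that did not overlap.

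Without CS replicate 2 and HFS replicate 2, 12003 genes were tested and 1 was called (0.00833%). The genes at an unadjusted p under 0.05 then numbered 649 higher (5.41%) and 328 lower (2.73%). Of the 309 higher genes, 211 (68.3%) were among them, and of the 223 lower genes, 107 (48%), with 0 genes in opposite directions. The fits share most of their libraries, so these shares and directions are not independent, and their values under no change were not computed. Higher genes made up 58.1% of the genes at an unadjusted p under 0.05 with all libraries and 66.4% without the pair.

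Single libraries moved these counts too. Without CS replicate 2 alone, 722 genes were higher and 399 lower at an unadjusted p under 0.05, and 2 were called, *Ndufs7* and *Klk6*. Without CS replicate 3 the counts were 178 and 160, and without HFS replicate 1 they were 191 and 239, so that lower genes then outnumbered higher ones. Neither of these 2 fits called a gene. Of the fits with 1 library left out, the most genes passed without CS replicate 2 (1121) and the fewest without CS replicate 3 (338). With counts thinned to the shallowest library, 507 genes were at an unadjusted p under 0.05 (285 higher, 222 lower), 0 were called by edgeR, and no list median given below shifted by more than 0.08.

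**Figure D2:**
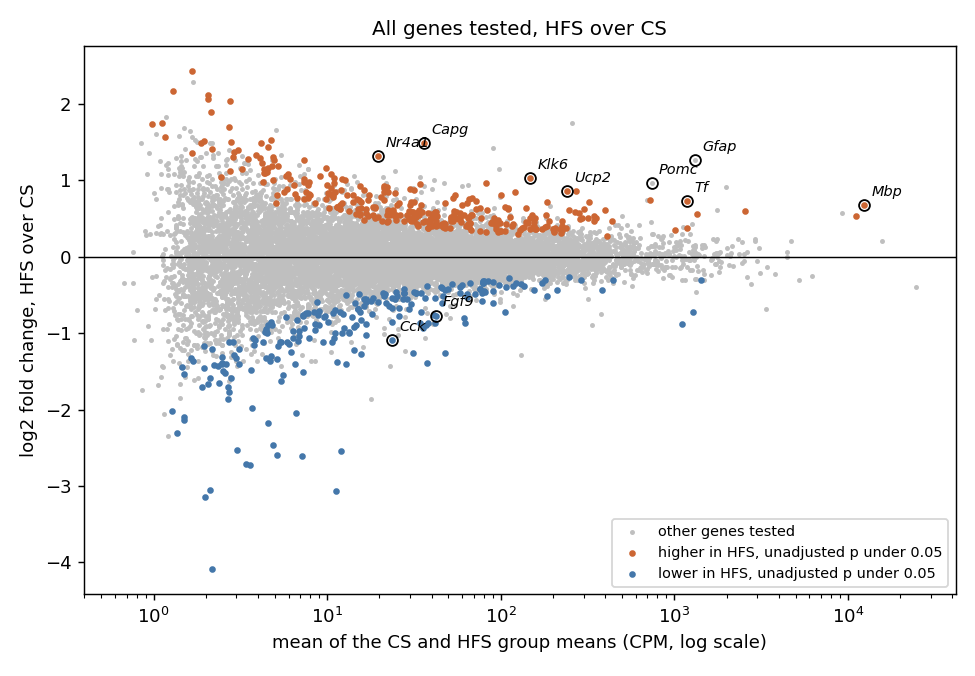
Log2 fold change of HFS over CS against mean level in CPM on a log axis for all 11892 genes tested, with genes at an unadjusted p under 0.05 in colour and 10 genes ringed. The cloud narrows as the level grows, and its middle lies at 0.00.

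Fold changes were small for most genes. The middle 90% of genes lay between -0.62 and 0.60 on the log2 scale, and the median was 0.00. A fold change of 2 or more was fitted for 151 genes in the higher and 201 genes in the lower direction, and 118 and 151 of these had a mean under 5 CPM. Of the 3804 genes with a mean over 50 CPM, 5 were at least 2-fold higher and 1 was at least 2-fold lower. The median standard error of a log2 fold change was 0.17 for these abundant genes and 0.28 for the 5767 genes between 5 and 50 CPM. The 95% intervals reached 0.35 and 0.59 to either side. A single gene of middle level thus needed a log2 difference of about 0.59 for its interval to leave 0. The genes that were higher at an unadjusted p under 0.05 had a median level of 33.6 CPM and those that were lower had 14 CPM, against 23.5 CPM over all genes tested.

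The called gene was *Nr4a1*, an orphan nuclear receptor whose gene is switched on quickly after a stimulus. Its levels were 10.5, 11.8 and 11.4 CPM in CS replicates 1 to 3 and 25.2, 30.9 and 28.2 CPM in HFS replicates 1 to 3. Each group was tight and the groups were far apart. The log2 fold change was 1.32 (SE 0.20, 95% interval 0.90 to 1.75), with an adjusted p of 0.096 by edgeR with Benjamini-Hochberg adjustment. Without CS replicate 2 and HFS replicate 2 the log2 fold change was 1.29 (SE 0.25) and the adjusted p 0.374 by the same test, so *Nr4a1* was then not called. With 1 library left out at a time, *Nr4a1* was called in 1 of 10 fits, the one without HFR replicate 4 (a high-fat runner), with an adjusted p of 0.0779. It was not called by edgeR with the CS and HFS libraries alone (adjusted p 0.22), with counts thinned to the shallowest library (0.131) or with a replicate block (0.26), all with Benjamini-Hochberg adjustment. Without CS replicate 1 its adjusted p was 0.75, the highest of all settings tried, and by DESeq2 with all libraries it was 5.38e-05, the lowest. Its log2 fold change lay between 1.25 and 1.39 in every one of these fits, so it was the call that moved, not the size. *Nr4a1* too is in the study's table for this comparison.

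*Capg*, which codes for a protein that caps actin filaments in macrophage-like cells, was the gene called without CS replicate 2 and HFS replicate 2. Its levels were 12, 25 and 20.4 CPM in CS and 69.5, 26.4 and 63.9 CPM in HFS. HFS replicates 1 and 3 were high and HFS replicate 2 lay just above CS replicate 2. The log2 fold change was 1.48 (SE 0.32) with all libraries, which edgeR did not call (DESeq2 did, with an adjusted p of 0.0568 by Benjamini-Hochberg), and 2.05 (SE 0.26) without the pair, with an adjusted p of 0.0355 by edgeR with Benjamini-Hochberg adjustment. It was also called when HFS replicate 2 alone was left out, with an adjusted p of 0.0695 by the same test, and over all settings its adjusted p ran from 1.31e-08 to 1. *Capg* is in the study's table for this comparison.

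By edgeR, none of the genes described from here on was called with all libraries or without the pair, so their values are a description and no change is claimed for them. The tools differ here. DESeq2 with all libraries called *Plekhf1* beside *Nr4a1* and *Capg*, with an adjusted p of 0.0568 (Benjamini-Hochberg). DESeq2 without the pair, a fit added after seeing the data, called 53 genes, among them *Nr4a1*, *Capg* and 17 of those described below, all higher in HFS. Of these 17, *Klk6* and *Ndufs7* had the smallest adjusted p (2.25e-05 for each by DESeq2 with Benjamini-Hochberg adjustment), followed by *Ucp2*, *Hspb1*, *Aebp1*, *Cd74*, *C1qb*, *C3*, *Npc2*, *Aldh1a1*, *C1qc*, *Gstt3*, *Tmem63a*, *Cavin1*, *Fcgrt*, *Plod1* and *Tf*. Gene symbols were known for 568 of the genes tested (4.78%), since the count files carry identifiers alone and symbols came from the study's tables for this comparison and for the miR-211 experiment. A gene of the first table was picked by the study for a difference in animals of this experiment. A gene from the miR-211 table alone was picked in other animals.

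The genes from *Plekhf1* to *Meis1* below were picked for a small unadjusted p among genes whose groups did not overlap. That their groups lay apart was thus set by the picking and is not a result. *Plekhf1* codes for an adaptor on endosomes and lysosomes. It stood at 22.6, 21.2 and 19.5 CPM in CS and at 37.8, 43.3 and 35.9 CPM in HFS. The groups were tight and did not overlap, and the log2 fold change was 0.88 (SE 0.18). *Junb*, a subunit of the AP-1 transcription factor, stood at 22.1, 23.2 and 27 CPM in CS and at 37.2, 37.4 and 43.6 CPM in HFS. It was as evenly spread, with every HFS library above every CS library and a log2 fold change of 0.71 (SE 0.17). *Tmem63a*, a mechanically gated channel found in myelinating cells, stood at 16.8, 30.8 and 23 CPM in CS and at 46, 49.4 and 40.8 CPM in HFS. CS replicate 2 was the highest of its group, and the log2 fold change was 0.95 (SE 0.24).

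*Cryab*, a small heat shock protein that comes from the miR-211 table alone, stood at 158, 200 and 218 CPM in CS and at 503, 309 and 236 CPM in HFS. HFS replicate 1 was far above the others and HFS replicate 3 lay close to CS, for a log2 fold change of 0.86 (SE 0.22). With 1 library left out that value ran from 0.5 to 1.08. *Gstt3*, a glutathione transferase, and *Plod1*, which hydroxylates lysines of collagen, had log2 fold changes of 0.57 (SE 0.15) and 0.57 (SE 0.16) with groups that did not overlap. *Cox4i2*, an isoform of a respiratory chain subunit, stood at 2.81, 4.1 and 1.72 CPM in CS and at 8.62, 5.92 and 6.57 CPM in HFS. It was low in every library, but the groups did not overlap.

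**Figure D3:**
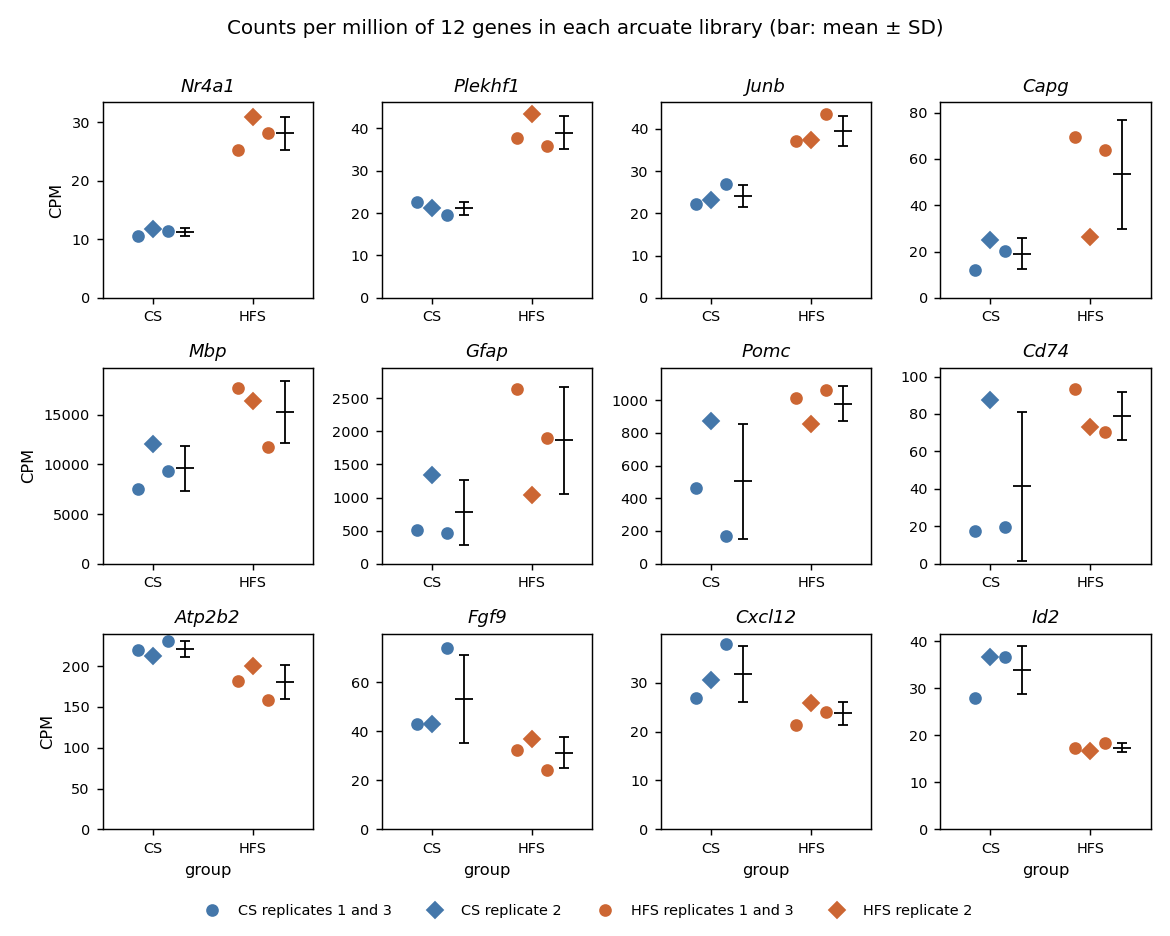
Level in CPM of 12 genes in each CS and HFS library, with bars for the mean ± SD of 3 libraries and diamonds for CS replicate 2 and HFS replicate 2. *Nr4a1* lies at 10.5 to 11.8 CPM in CS and at 25.2 to 30.9 CPM in HFS, while for *Cd74* and *Pomc* CS replicate 2 sits among the HFS libraries.

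Among genes lower in HFS, *Fgf9*, a growth factor of neurons, stood at 43, 42.8 and 73.8 CPM in CS and at 32.2, 36.9 and 24.3 CPM in HFS. CS replicate 3 was far above the other CS libraries, and the log2 fold change was -0.77 (SE 0.27), with groups that did not overlap. With 1 library left out that value ran from -0.91 to -0.46. *Id2*, an inhibitor of helix-loop-helix factors from the miR-211 table alone, stood at 27.9, 36.7 and 36.7 CPM in CS and at 17.2, 16.6 and 18.4 CPM in HFS. The HFS libraries were nearly equal and well below CS, but the error of the fit was wide, with a log2 fold change of -0.95 (SE 0.50). *Atp2b2*, a calcium pump of the neuronal membrane, stood at 219.8, 212 and 231 CPM in CS and at 182, 200.4 and 159 CPM in HFS, a small and even difference with a log2 fold change of -0.29 (SE 0.16). *Rspry1* and *Meis1*, a homeobox factor, were also lower, with log2 fold changes of -0.98 (SE 0.32) and -0.74 (SE 0.33).

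Most genes had no symbol. The one with the smallest unadjusted p that was lower, ENSRNOG00000002254, stood at 42.8, 52.9 and 67 CPM in CS and at 33.6, 27.3 and 27.7 CPM in HFS. The one that was higher, ENSRNOG00000032703, stood at 15.3, 14.6 and 14.2 CPM in CS and at 28.4, 34.4 and 20.8 CPM in HFS. Other fits called lower genes without a symbol, which are named here after their values were seen. DESeq2 with all libraries called ENSRNOG00000005659 (log2 fold change -2.61 by edgeR, adjusted p 0.0861 by DESeq2 with Benjamini-Hochberg adjustment), and edgeR without HFR replicate 4 called ENSRNOG00000011006 (log2 fold change -3.06 with all libraries, adjusted p 0.0779 with Benjamini-Hochberg adjustment). Neither was called by edgeR with all libraries.

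The symbols allowed 29 lists of genes by role or cell type, with 250 distinct members, of which 226 were tested. Of the 250, 170 were in the study's table for this comparison and 80 came from the miR-211 table alone. Lists are described by the members in each direction and their median log2 fold change, against 5994 higher and 5898 lower genes with a median of 0.00 over all genes tested. The median was above 0 in 22 lists and below 0 in 7. Beside each median stand its value without CS replicate 2 and HFS replicate 2 and, of the fits with 1 CS or HFS library left out, the value nearest to 0. Leaving out CS replicate 2 alone moved all 29 medians away from 0, and 19 of them by more than 1.5 times. Leaving out CS replicate 1 moved 13 by more than 1.5 times, CS replicate 3 moved 16, and HFS replicates 1, 2 and 3 moved 10, 6 and 2. Without CS replicate 1 or CS replicate 3, 24 of the 29 lay nearer to 0, and without HFS replicate 1, 26 did. The sizes of the medians thus turned on single libraries. In bulk tissue, fewer cells of a type and less RNA per cell cannot be told apart, and neither can a difference in how much of the neighbouring tissue a punch held.

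The source of the symbols bears on every list. Of the 422 tested named genes of the study's table for this comparison, 261 were higher and 161 lower, with 68 higher (16.1%) and 22 lower (5.21%) at an unadjusted p under 0.05 and a median of 0.25 (0.58 without CS replicate 2 and HFS replicate 2, 0.12 without CS replicate 3). The study picked these genes for a difference in animals of this experiment, so their counts are not independent of the comparison. Of the lists below, those of arcuate and neighbouring regions, transcription factors, GABA, synaptic vesicles and ion channels held genes of that table alone. So did those of the neuronal cytoskeleton, myelin, antigen presentation, leptomeningeal cells, mural cells, ependymal cells and metallothioneins. The directions of their members are not independent of that picking. Of the 146 tested named genes from the miR-211 table alone, 107 were higher and 39 lower, with 15 higher (10.3%) and 1 lower (0.685%) at an unadjusted p under 0.05 and a median of 0.17 (0.34 without the pair, 0.10 without HFS replicate 1). Genes from either table leaned to higher values in HFS, where all genes tested were balanced.

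**Figure D4:**
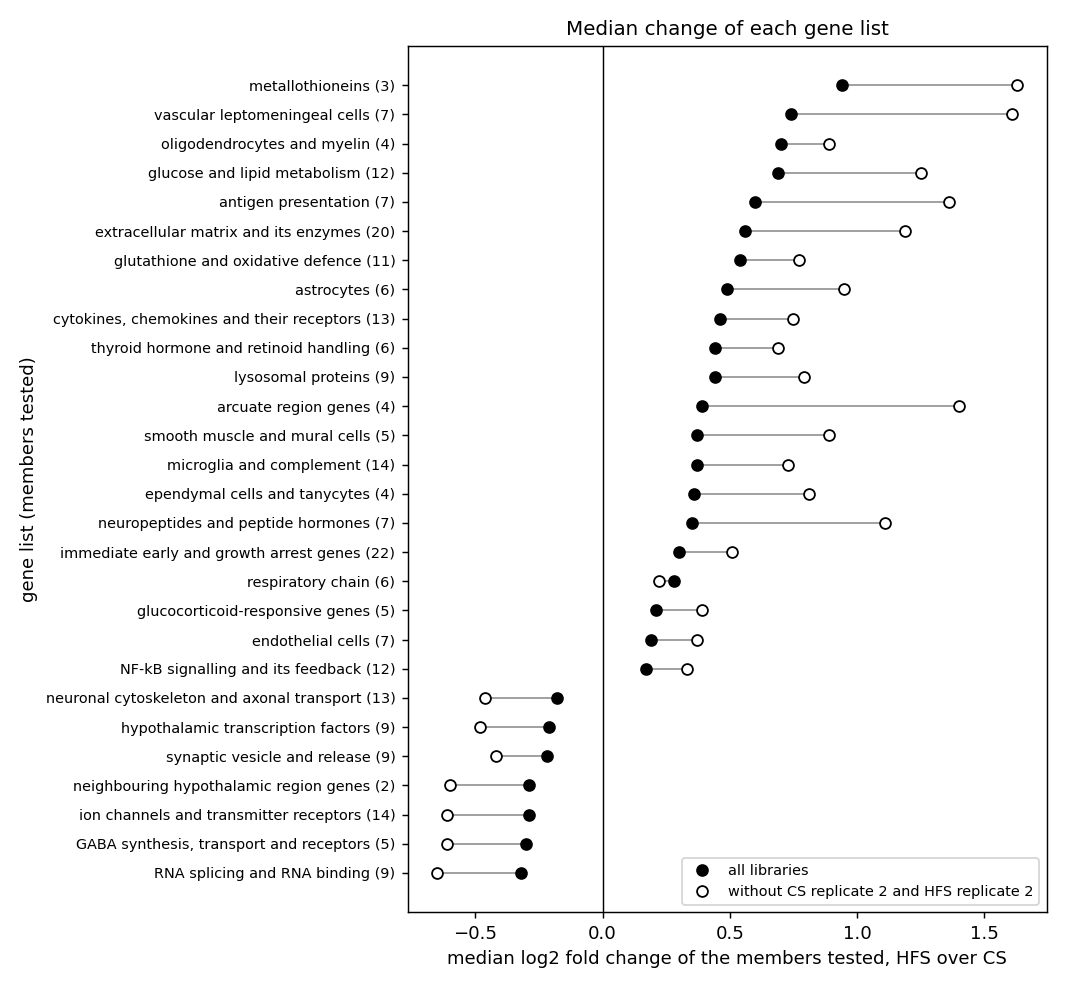
Median log2 fold change of HFS over CS for the 28 lists with at least 2 members tested, with all libraries (filled) and without CS replicate 2 and HFS replicate 2 (open). Medians run from -0.32 for RNA binding proteins to 0.94 for metallothioneins, and the open points lie farther from 0 in every list but that of the respiratory chain.

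The tissue label was checked with genes that mark the nucleus. *Pomc* stood at 464, 875 and 171 CPM in CS and at 1012, 857 and 1063 CPM in HFS. *Ghrh*, of neurons that release growth hormone releasing hormone, stood at 29.4, 90.5 and 42.9 CPM in CS and at 77.2, 86.2 and 77.8 CPM in HFS. Both were present in every library, evenly in HFS and unevenly in CS, where replicate 2 was at the level of HFS. *Nkx2-1*, a factor of the ventral hypothalamus, stood at 31.4, 35.8 and 32 CPM in CS and at 40.7, 23 and 42.3 CPM in HFS. *Tbx3*, a factor of arcuate neurons and tanycytes, stood at 1.12, 13 and 5.58 CPM in CS and at 15, 1.92 and 6.24 CPM in HFS. *Tbx3* was low in CS replicate 1 and HFS replicate 2, and all 4 markers had reads in every library. *Ghrh*, *Nkx2-1*, *Tbx3* and *Sim1* below are members of the marker lists that are named after their values were seen.

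The 4 arcuate markers summed to 526, 1014 and 251 CPM in CS and to 1145, 968 and 1189 CPM in HFS, with *Pomc* the most abundant. All 4 were higher in HFS, none at an unadjusted p under 0.05, with a median of 0.39 (1.40 without CS replicate 2 and HFS replicate 2, 0.16 without CS replicate 1). Of the 4, *Tbx3* turned to -0.69 without HFS replicate 1 and to -0.29 without CS replicate 1, and *Nkx2-1* to -0.06 without HFS replicate 3 and to -0.02 without HFS replicate 1. For *Pomc* itself the log2 fold change was 0.96 (SE 0.71), with a 95% interval from -0.71 to 2.62. It was 1.71 without CS replicate 2 and HFS replicate 2, and ran from 0.55 to 1.62 with 1 library left out. Genes of neighbouring regions, *Trh* and *Sim1*, mark the paraventricular nucleus and other sites. They summed to 164, 136 and 152 CPM in CS and to 101, 146 and 118 CPM in HFS, *Trh* being the more abundant, and both were lower with a median of -0.29 (-0.60 without the pair, -0.15 without HFS replicate 1). Across libraries the arcuate sum, most of it *Pomc*, varied far more than the neighbouring sum. The part of punch position in any result was not tested.

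Of 7 neuropeptides and peptide hormones, 5 were higher, with a median of 0.35 (1.11 without the pair, 0.05 without CS replicate 1). *Cck*, the gene of cholecystokinin, was 1 of the lower ones, at 34.1, 19.6 and 43.1 CPM in CS and 13.6, 11.5 and 20.3 CPM in HFS. CS replicate 2 fell within the HFS range. Of 9 hypothalamic transcription factors, 4 were higher and the median was -0.21 (-0.48 without the pair, -0.06 without HFS replicate 3).

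All 14 members of the list of ion channels and transmitter receptors, all from the study's table for this comparison, were lower, 1 of them at an unadjusted p under 0.05 (7.14% against 1.88% of all genes tested and 5.21% of that table), with a median of -0.29 (-0.61 without CS replicate 2 and HFS replicate 2, -0.11 without CS replicate 3). Their sums were 1230, 958 and 1529 CPM in CS and 912, 1105 and 958 CPM in HFS. CS replicates 1 and 3 were above every HFS library and CS replicate 2 was not. *Scn2a*, the most abundant, codes for a sodium channel of axons and stood at 254, 195 and 353 CPM in CS and at 182, 226 and 219.5 CPM in HFS.

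Of 5 genes of GABA synthesis, transport and reception, 4 were lower with a median of -0.30 (-0.61 without the pair, -0.01 without CS replicate 1), 0 of them at an unadjusted p under 0.05. They summed to 1137, 515 and 838 CPM in CS and to 624, 725 and 644 CPM in HFS. CS replicate 2 was the lowest of all libraries. *Slc32a1*, the vesicular GABA transporter and the most abundant, stood at 624, 321 and 429.5 CPM in CS and at 366, 402 and 349 CPM in HFS. *Gad2*, which makes GABA, stood at 398, 114 and 259 CPM in CS and at 174, 230 and 202 CPM in HFS. These genes mark the neurons that release GABA, which the other members do not, and both ranged more widely over CS than over HFS.

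Of 9 genes of synaptic vesicles and release, 7 were lower with a median of -0.22 (-0.42 without the pair, -0.06 without CS replicate 3). *Syngr3*, a synaptic vesicle protein, was lower at an unadjusted p under 0.05 (11.1% of the list against 1.88% of all genes tested and 5.21% of the study's table), at 495, 403 and 588 CPM in CS and 362, 396 and 437 CPM in HFS. Of 13 genes of the neuronal cytoskeleton and axonal transport, 12 were lower, 2 of them at an unadjusted p under 0.05 (15.4% against 1.88% of all genes tested and 5.21% of the study's table), with a median of -0.18 (-0.46 without the pair, -0.06 without CS replicate 3). They summed to 3543, 2723 and 4340.3 CPM in CS and to 2849, 3039.5 and 3134 CPM in HFS, with *Map1b* the most abundant. *Dcx*, of young migrating neurons, and *Clasp1*, which steadies microtubules, were the members at an unadjusted p under 0.05, with log2 fold changes of -1.11 (SE 0.43) and -0.59 (SE 0.26). Of 9 tested proteins of RNA splicing and RNA binding, 8 were lower with a median of -0.32 (-0.65 without the pair, -0.29 without HFS replicate 3). The part of the amount of neuronal RNA in the other lists was not tested.

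The myelin genes of the list had positive log2 fold changes, and edgeR called none of them with all libraries. *Mbp*, myelin basic protein, stood at 7492, 12046 and 9335 CPM in CS and at 17711, 16364 and 11755 CPM in HFS. HFS replicate 3 fell just below CS replicate 2, and the log2 fold change was 0.67 (SE 0.20). *Tf*, transferrin, which oligodendrocytes make in the brain, stood at 811, 1034 and 818 CPM in CS and at 2009, 1248 and 1155 CPM in HFS. *Klk6*, a protease of oligodendrocytes, stood at 67, 153 and 71.9 CPM in CS and at 246, 175 and 175 CPM in HFS. In both genes the groups did not overlap and CS replicate 2 was the highest of CS. *Klk6* was called when CS replicate 2 alone was left out, with an adjusted p of 0.0709 by edgeR with Benjamini-Hochberg adjustment, against 0.994 with all libraries. *Plekhb1* completed the list, with a log2 fold change of 0.50 (SE 0.17).

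All 4 myelin genes were higher at an unadjusted p under 0.05 (against 2.6% of all genes tested and 16.1% of the study's table), with a median of 0.70 (0.89 without CS replicate 2 and HFS replicate 2, 0.49 without HFS replicate 1). Their sums were 8584, 13525 and 10446 CPM in CS and 20339.5, 18106 and 13423 CPM in HFS, with *Mbp* the most abundant by far. Of the lists with at least 2 members tested and a median over 0.5, this one differed least between the sets with and without the pair. White matter tracts lie near the nucleus, and the part of the white matter in a punch was not tested. All 4 genes were in the study's table for this comparison.

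All 6 astrocyte genes were higher, with a median of 0.49 (0.95 without the pair, 0.31 without CS replicate 1), 1 of them at an unadjusted p under 0.05 (16.7% against 2.6% of all genes tested and 16.1% of the study's table, which holds 5 of the 6). They summed to 3512, 5657 and 3903 CPM in CS and to 6967, 4531 and 6556 CPM in HFS, with *Clu* the most abundant. *Gfap*, the intermediate filament that marks reactive astrocytes and is named here after its values were seen, stood at 508, 1347 and 470.1 CPM in CS and at 2649.9, 1035 and 1907 CPM in HFS. CS replicate 2 was above HFS replicate 2, and the other libraries of each group were well apart. The log2 fold change of *Gfap* was 1.27 (SE 0.65) with all libraries and 2.23 (SE 0.61) without the pair, and edgeR called it in neither fit. *Sod3*, an extracellular superoxide dismutase, was the member at an unadjusted p under 0.05, with a log2 fold change of 0.68 (SE 0.27).

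Of 14 genes of microglia and complement, 12 were higher, 3 of them at an unadjusted p under 0.05 (21.4% against 2.6% of all genes tested and 16.1% of the study's table, which holds 9 of the 14 and all 3), with a median of 0.37 (0.73 without the pair, 0.18 without CS replicate 1). They summed to 549, 875 and 609 CPM in CS and to 1040.2, 757 and 931 CPM in HFS. *C1qb*, the most abundant, stood at 102, 154 and 70.6 CPM in CS and at 184, 165 and 160.3 CPM in HFS. *C1qc*, of the same complement complex, stood at 44.3, 68.8 and 33.5 CPM in CS and at 94.3, 76 and 77.3 CPM in HFS. *C3*, the central complement component, stood at 12, 20.5 and 12 CPM in CS and at 33.6, 22.9 and 26.9 CPM in HFS. In these 3 genes every HFS library lay above every CS library, with CS replicate 2 nearest to HFS.

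All 7 genes of antigen presentation were higher, 1 of them at an unadjusted p under 0.05 (14.3% against 2.6% of all genes tested, and fewer than the 16.1% of the study's table), with a median of 0.60 (1.36 without the pair, 0.34 without CS replicate 3). They summed to 117, 331 and 104 CPM in CS and to 334, 259.6 and 287 CPM in HFS. *Cd74*, the invariant chain of class II molecules, stood at 17.4, 87.3 and 19.5 CPM in CS and at 93.5, 73.2 and 70.1 CPM in HFS. CS replicate 2 exceeded HFS replicates 2 and 3, and the other CS libraries were far below every HFS library. All 7 were in the study's table for this comparison, and *Fcgrt* was the most abundant.

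The lists of vascular leptomeningeal cells, of mural cells and of the extracellular matrix had higher sums in CS replicate 2 than in the other CS libraries. The 7 genes of vascular leptomeningeal cells, fibroblast-like cells of the meninges and large vessels, were all higher with a median of 0.74 (1.61 without the pair, 0.33 without CS replicate 3). They summed to 171, 550 and 179 CPM in CS and to 555, 391 and 475 CPM in HFS. *Aebp1*, the most abundant, stood at 30.3, 156 and 32 CPM in CS and at 165, 102 and 108 CPM in HFS. CS replicate 2 lay near the top of the HFS range for *Aebp1* and for the sum. Of 5 genes of smooth muscle and mural cells, 4 were higher with a median of 0.37 (0.89 without the pair, 0.15 without CS replicate 3), and their sums were 189.9, 471 and 169.8 CPM in CS and 349.7, 311 and 315 CPM in HFS, with *Cavin1* the most abundant. CS replicate 2 was the highest of all 6 libraries there. All members of the leptomeningeal and mural lists were in the study's table for this comparison.

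All 20 tested genes of the extracellular matrix and its enzymes were higher, 2 of them at an unadjusted p under 0.05 (10% against 2.6% of all genes tested, and fewer than the 16.1% of the study's table), with a median of 0.56 (1.19 without CS replicate 2 and HFS replicate 2, 0.26 without CS replicate 3). They summed to 542, 1174 and 474 CPM in CS and to 1213, 864 and 1009.8 CPM in HFS. *Mmp2*, a gelatinase, stood at 6.17, 10.9 and 6.65 CPM in CS and at 15.2, 12.5 and 13.3 CPM in HFS. Its groups did not overlap, unlike those of the sum. Of the 21 members, 19 were in the study's table for this comparison.

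Endothelial genes, none of which was in the study's table for this comparison, gave nearly the same sum in every library, 387, 411 and 417 CPM in CS and 436, 404 and 428 CPM in HFS. Of 7 tested, 6 were higher with a median of 0.19 (0.37 without the pair, 0.14 without HFS replicate 1), and 1 was at an unadjusted p under 0.05 (14.3% against 2.6% of all genes tested and 10.3% of the miR-211 table alone). *Slc2a1*, the glucose transporter of the blood-brain barrier and the most abundant, stood at 223, 249.5 and 239 CPM in CS and at 259, 206 and 227 CPM in HFS, with groups that overlapped throughout. *Apold1*, which endothelial cells switch on quickly, stood at 3.37, 3.39 and 2.79 CPM in CS and at 7.07, 9.12 and 5.6 CPM in HFS. Its groups did not overlap. *Selp* and *Sox7* were too low to test, with at most 1.07 and 1.6 CPM in any library.

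The 4 genes of ependymal cells and tanycytes were higher with a median of 0.36 (0.81 without the pair, 0.02 without HFS replicate 1), 0 of them at an unadjusted p under 0.05. They summed to 52.6, 88.2 and 46.6 CPM in CS and to 109, 65.1 and 63.4 CPM in HFS, with *Lhx2* the most abundant. HFS replicates 2 and 3 lay between the CS libraries. Of 5 neutrophil genes, *Mcemp1* was at 0 counts in all 6 libraries, and 1, *Lcn2*, could be tested. It stood at 1.5, 2.32 and 1.93 CPM in CS and at 1.9, 3.36 and 3.52 CPM in HFS, a log2 fold change of 0.61 (SE 0.54). The part of these cell types in the results for other genes was not tested.

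**Figure D5:**
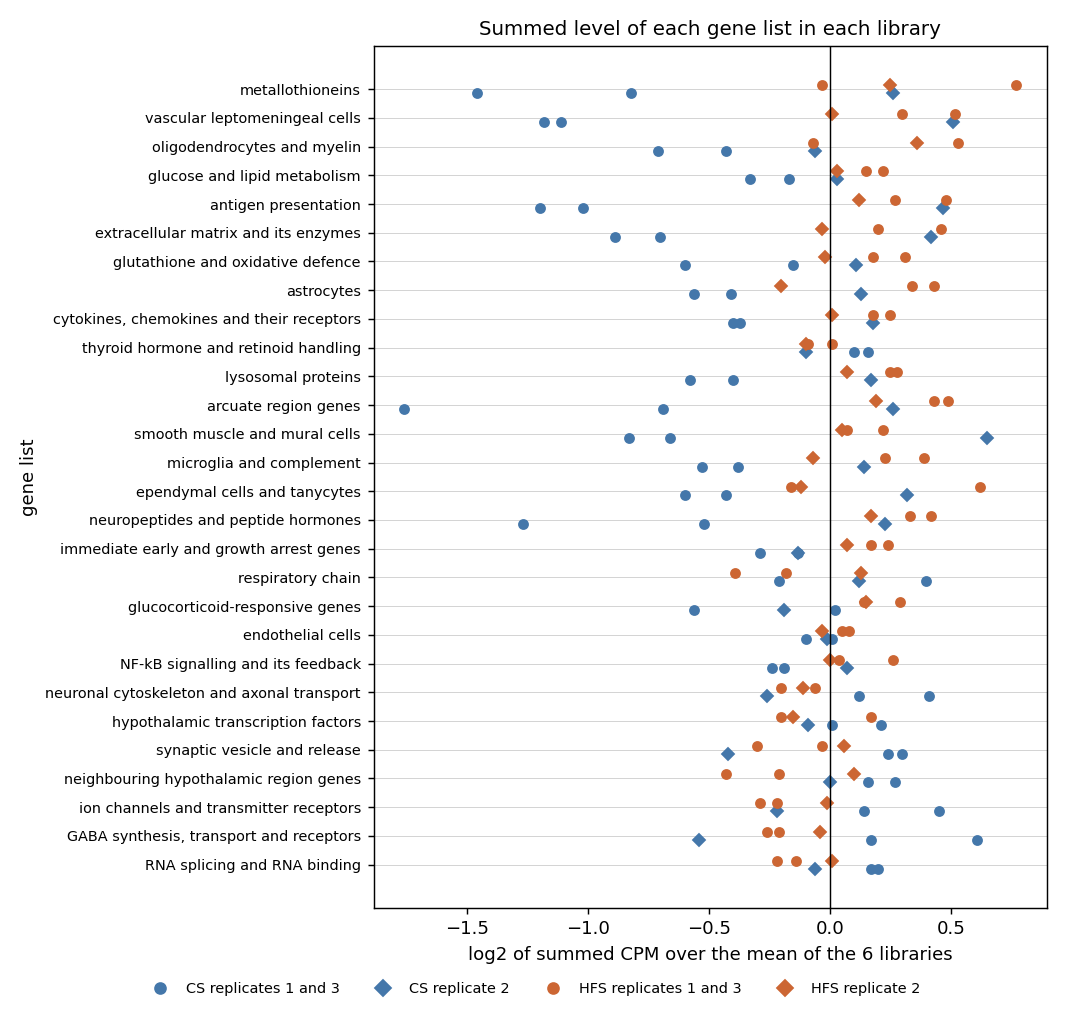
Log2 of the summed CPM of each list's members over the mean of the 6 libraries, in each CS and HFS library, for the 28 lists with at least 2 members tested, ordered by their median log2 fold change. CS replicate 2 (blue diamonds) reaches the HFS side in 26 lists, CS replicate 1 in 1 and CS replicate 3 in 2.

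The summed levels were compared over all 28 lists with at least 2 members tested, each in the direction of its mean sums, which in 2 lists (thyroid hormone and respiratory chain) is not that of the median. In 26 of them CS replicate 2 reached or passed the range of the HFS libraries, against 1 for CS replicate 1 and 2 for CS replicate 3. In 23 of the lists it was the sole CS library to do so. HFS replicate 2 reached or passed the range of CS in 24 lists, HFS replicate 3 in 13 and HFS replicate 1 in 7. Lists share members and libraries, so these counts are not independent. Most members were picked by the study from a table with a column for CS replicates 1 and 3 and none for CS replicate 2. The part of the picking in these counts was not tested. In the 7 lists with at least 2 tested members from the miR-211 table alone, the sums of those members put CS replicate 2 in or past the HFS range in 4, and CS replicates 1 and 3 in 1 each. In 2 of the 28 lists, the immediate early genes and the glucocorticoid-responsive genes, no CS library reached the HFS range. These come mostly and wholly from the miR-211 table alone.

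The immediate early and growth arrest genes, which cells switch on briefly after activity or stress, came mostly from the miR-211 table alone (18 of 23 members). Their sums were 422, 469.6 and 472 CPM in CS and 611, 541 and 578 CPM in HFS. The groups were tight, and CS replicate 2 lay with CS. Of 22 tested, 20 were higher, 6 of them at an unadjusted p under 0.05 (27.3% against 2.6% of all genes tested), and 7 had every HFS library above every CS library (31.8% against 4.81%). The median was 0.30 (0.51 without the pair, 0.21 without HFS replicate 1). The 2 sources differed. All 5 tested members of the study's table for this comparison were at an unadjusted p under 0.05, with a median of 0.85. Of the 17 from the miR-211 table alone, 15 were higher, 1 of them (*Zfp36*) at an unadjusted p under 0.05 (5.88%, fewer than the 10.3% of all named genes of that table alone), and 3 had every HFS library above every CS library (17.6% against 14.4%), with a median of 0.24. Of the 7 members at an unadjusted p under 0.05 in either direction, 5 thus come from genes the study had picked.

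*Btg2*, an antiproliferative gene, stood at 10.1, 18.5 and 10.1 CPM in CS and at 23.8, 20.6 and 20.3 CPM in HFS. *Zfp36*, whose protein speeds the decay of cytokine messages, stood at 4.68, 5.52 and 3.01 CPM in CS and at 12.4, 6.88 and 6.24 CPM in HFS. *Atf3*, a stress factor, stood at 0.187, 0.713 and 1.5 CPM in CS and at 5.86, 0.48 and 3.68 CPM in HFS. The groups were apart for *Btg2* and *Zfp36*, while *Atf3* had 1 read in CS replicate 1 and 3 reads in HFS replicate 2. *Jun*, the most abundant of the list, stood at 43, 48.5 and 65.5 CPM in CS and at 68.1, 58.7 and 58 CPM in HFS, and overlapped. *Fosl1*, from the miR-211 table alone, was the lower member at an unadjusted p under 0.05 (4.55% of the list against 1.88% of all genes tested). Its log2 fold change was -1.59 (SE 0.68) at a level of at most 5.99 CPM. With 1 library left out that value ran from -1.98 to -0.77.

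The 5 genes that respond to glucocorticoids, all from the miR-211 table alone, summed to 284, 246 and 190 CPM in CS and to 308, 311 and 344 CPM in HFS. *Sgk1*, a kinase, stood at 81, 56 and 30.7 CPM in CS and at 103, 102 and 122 CPM in HFS. *Ddit4*, which restrains mTOR signalling, stood at 84.4, 81.1 and 62.7 CPM in CS and at 112, 117 and 95 CPM in HFS. Both had groups that did not overlap and CS replicate 3 was the lowest for both. They were the 2 of 5 at an unadjusted p under 0.05 (40% against 2.6% of all genes tested and 10.3% of the miR-211 table alone), with log2 fold changes of 0.96 (SE 0.28) and 0.50 (SE 0.19). Of the 5, 3 were higher, with a median of 0.21 (0.39 without the pair, 0.10 without CS replicate 3).

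Of 12 tested genes of NF-kB signalling and its feedback, a pathway of inflammation, 9 were higher with a median of 0.17 (0.33 without the pair, 0.08 without HFS replicate 1). *Nfkbia*, the inhibitor that NF-kB itself induces, stood at 51.1, 50.4 and 27.5 CPM in CS and at 77.4, 62.1 and 56.5 CPM in HFS. Its groups did not overlap, and it was the member at an unadjusted p under 0.05 (8.33% against 2.6% of all genes tested and 10.3% of the miR-211 table alone, which holds 10 of the 12). Among cytokines, chemokines and their receptors, 13 of 26 were too low to test, *Il1b* and *Il6* with at most 0.801 and 0.374 CPM. Of the 13 tested, 12 were higher with a median of 0.46 (0.75 without the pair, 0.26 without CS replicate 1).

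*Il17ra*, the receptor of interleukin 17, stood at 18, 18 and 16.3 CPM in CS and at 25.7, 23.2 and 22.9 CPM in HFS. *Il10rb*, a shared receptor chain, stood at 7.48, 9.09 and 5.15 CPM in CS and at 16.2, 9.76 and 13 CPM in HFS. *Il11ra1* stood at 58.4, 83.6 and 35.8 CPM in CS and at 83.3, 104 and 90.2 CPM in HFS. These were the 3 higher members at an unadjusted p under 0.05 (23.1% of 13 against 2.6% of all genes tested). *Il10rb* and *Il11ra1* were 2 of the 9 from the study's table (22.2% against 16.1% of that table). *Il17ra* was 1 of the 4 from the miR-211 table alone (25% against 10.3%). For *Il11ra1* alone of the 3 the groups overlapped. *Cxcl12*, a chemokine of neurons and vessels, was the lower member at an unadjusted p under 0.05. It made up 7.69% of the 13, against 1.88% of all genes tested and 5.21% of the study's table. Its log2 fold change was -0.42 (SE 0.19), and its groups did not overlap.

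All 9 lysosomal genes were higher, 3 of them at an unadjusted p under 0.05 (33.3% against 2.6% of all genes tested and 16.1% of the study's table, which holds 8 of the 9 and all 3), with a median of 0.44 (0.79 without CS replicate 2 and HFS replicate 2, 0.32 without CS replicate 3). They summed to 1107, 1640.3 and 977 CPM in CS and to 1774, 1535 and 1734 CPM in HFS. *Arsa*, which breaks down a myelin lipid, stood at 48.8, 51.9 and 42.1 CPM in CS and at 65.5, 66.2 and 72.1 CPM in HFS. *Npc2*, which moves cholesterol out of the lysosome, stood at 264, 384 and 234 CPM in CS and at 468, 373 and 410.2 CPM in HFS. *Arsa* was evenly apart, and for *Npc2* CS replicate 2 lay above HFS replicate 2.

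Of 11 genes of glutathione and oxidative defence, 10 were higher, 3 of them at an unadjusted p under 0.05 (27.3% against 2.6% of all genes tested and 16.1% of the study's table), with a median of 0.54 (0.77 without the pair, 0.27 without CS replicate 3). *Gstt3* stood at 203, 260.2 and 221 CPM in CS and at 396, 318 and 299.9 CPM in HFS. *Mgst1*, a membrane-bound transferase, stood at 74.1, 102 and 70.2 CPM in CS and at 136, 118 and 134 CPM in HFS. Every HFS library was above every CS library in both. The 3 metallothioneins, which bind zinc and copper, were all higher with a median of 0.94 (1.63 without the pair, 0.63 without HFS replicate 1), 0 of them at an unadjusted p under 0.05. *Mt2A*, the most abundant, stood at 35.2, 73.8 and 23.4 CPM in CS and at 117, 73.7 and 63.7 CPM in HFS, and CS replicate 2 lay within HFS. *Hspb1*, a small heat shock protein, stood at 27.3, 113 and 41 CPM in CS and at 242, 81.7 and 77.5 CPM in HFS, and there too CS replicate 2 lay within HFS.

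Of 12 tested genes of glucose and lipid metabolism, 10 were higher, 4 of them at an unadjusted p under 0.05 (33.3% against 2.6% of all genes tested and 16.1% of the study's table, which holds 9 of the 12 and 3 of the 4), with a median of 0.69 (1.25 without the pair, 0.38 without CS replicate 3). *Ucp2*, a mitochondrial carrier that limits reactive oxygen, stood at 159, 269 and 81.8 CPM in CS and at 326, 269.8 and 334 CPM in HFS. *Gpd1*, which links glycolysis to lipid synthesis and comes from the miR-211 table alone, stood at 76.7, 51.7 and 33.9 CPM in CS and at 86.6, 94.2 and 88.5 CPM in HFS. HFS was even for both genes and CS was not, and for *Ucp2* the groups all but touched. *Pemt*, which makes phosphatidylcholine, and *Thrsp*, which goes with fatty acid synthesis, were the other members at an unadjusted p under 0.05. Their log2 fold changes were 0.76 (SE 0.31) and 0.87 (SE 0.36). With 1 library left out these ran from 0.52 to 1.19 for *Pemt* and from 0.44 to 1.1 for *Thrsp*.

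Of 6 genes that handle thyroid hormone and retinoids, 4 were higher with a median of 0.44 (0.69 without the pair, 0.23 without CS replicate 1), although their sums, 783, 678 and 812 CPM in CS and 687, 681 and 732 CPM in HFS, were led by *Thra*, which was lower. *Aldh1a1*, which makes retinoic acid, stood at 28.4, 51.9 and 29 CPM in CS and at 68.5, 42.5 and 66.8 CPM in HFS. CS replicate 2 was above HFS replicate 2. Of 6 genes of the respiratory chain, 4 were higher with a median of 0.28 (0.22 without the pair, 0.12 without HFS replicate 2). *Ndufs7*, a subunit of complex I, stood at 206, 419 and 217 CPM in CS and at 401, 431 and 385 CPM in HFS. CS replicate 2 lay with HFS, and the log2 fold change of 0.53 (SE 0.21) became 0.90 (SE 0.15) without the pair. *Ndufs7* was called when CS replicate 2 alone was left out, with an adjusted p of 0.0685 by edgeR with Benjamini-Hochberg adjustment, against 0.994 with all libraries. The sum of the list, led by the mitochondrial gene *Mt-co1*, was lower in HFS on average, unlike its median.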

How the data were processed

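Total RNA from punches of the arcuate nucleus was sequenced by a bulk form of MARS-seq, 1 library per rat. By the paper's account, reads were trimmed with Cutadapt and aligned to Rnor6 with STAR 2.7.9a. Duplicates were then removed with SAMtools rmdup, which goes by mapping position. Raw counts per gene from HTSeq 0.13.5 were deposited. They were made in its union mode without strand, so overlapping and antisense genes cannot be told apart. The gene total of every CS and HFS library was above the feature count that the paper reports. Whether duplicates were removed from the deposited counts was not tested. No use of molecular identifiers is described for these libraries. Each file held 32883 Ensembl genes. Its summary lines, reads outside genes (22.6% to 26.3%), on several places (18% to 20.6%) or on overlapping genes (1.75% to 2.12%), were left out.

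Genes were filtered with filterByExpr, scaled by TMM and tested in edgeR 4.0.16 (R 4.3.3) with the robust quasi-likelihood test. All were tested in 1 fit of 10 libraries (3 CS, 3 HFS and 4 HFR, the high-fat runners), with Benjamini-Hochberg adjustment. A call was made at an adjusted p under 0.1, the study's threshold on adjusted p. A figure caption of the study adds a minimum log2 fold change, which was not applied here. Gene totals of the 10 libraries ran from 4680736 to 7494207. Distances used log2 CPM with a prior count of 2. Symbols of 606 genes came from the 2 gene tables of the study, whose comparison columns were not used. The text names genes by rule: those called with or without CS replicate 2 and HFS replicate 2; per direction, the 12 with a symbol and the 2 without with the smallest p whose groups did not overlap; of each list, members at an unadjusted p under 0.05 and the most abundant; and genes the study names. The rule gave 92 genes, not all reported here, and 7 more (*Gfap*, *Ghrh*, *Nkx2-1*, *Tbx3*, *Sim1*, ENSRNOG00000005659 and ENSRNOG00000011006) were named after their values were seen. The lists and these genes were chosen with earlier results of these data known. The alternatives were DESeq2 1.42.0, other scalings and filters, thinned counts (seed 1), a replicate block and fits with libraries left out. The steps were tested on simulated data, where many 2-fold changes were missed and some calls fell on unchanged genes. Figures were drawn with matplotlib.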

Additional observations from a re-analysis of the deposited data

How the results depend on the processing

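The number of genes called was 1 with RLE or upper-quartile scaling, with no filter (19407 genes tested), with at least 10 CPM in 3 libraries and with a fold of at least 2 required. It was 4 by DESeq2 (3 of them higher, *Nr4a1*, *Capg* and *Plekhf1*), and 0 at an adjusted p under 0.05, with the CS and HFS libraries alone and with counts thinned to the shallowest library. With 1 library left out it was 0 to 2. The edgeR fits with 0 calls had 338 to 699 genes at an unadjusted p under 0.05, against 558 by DESeq2. DESeq2 without CS replicate 2 and HFS replicate 2, chosen after seeing the data, called 53 genes, 49 of them higher, and had 951 genes at an unadjusted p under 0.05, 624 of them higher. The gap between the tools was not tested further.

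Genes at an unadjusted p under 0.05 numbered 977 without CS replicate 2 and HFS replicate 2 (649 higher) and 338 to 1121 with 1 library left out (178 to 722 higher, 160 to 399 lower). Lower genes numbered 372 with no filter and 138 with at least 10 CPM, following the number of genes tested. Genes whose groups did not overlap numbered 4961 without the pair (2549 higher, 2412 lower) and 2115 to 3433 with 1 library left out (1008 to 1817 higher, 1107 to 1616 lower), as groups with fewer libraries overlap less often.

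Mean distances within CS, within HFS and between were 81.1, 65.7 and 76 with a prior count of 0.5, and 39.4, 28.2 and 36.4 over the 500 most variable genes. The mean within HFS was 56.5 with thinned counts. With 1 library left out the means were 70.6 to 82.9 within CS and 60.7 to 61.8 within HFS, where the group that lost a library had 1 pair. CS libraries were farther apart than HFS libraries in each of these settings.

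No list median changed sign in its 17 settings, but with 1 library left out some came close to 0 (GABA genes -0.01 without CS replicate 1, ependymal genes 0.02 without HFS replicate 1, neuropeptides 0.05 without CS replicate 1). Of the genes named in the text, 5 changed sign in a setting. With 1 library left out at a time, the log2 fold change of *Gad2* ran from -0.70 (without CS replicate 2) to 0.11 (without CS replicate 1), of *Lhx2* from -0.06 (without HFS replicate 1) to 0.47, of *Nkx2-1* from -0.06 (without HFS replicate 3; -0.02 without HFS replicate 1) to 0.33, of *Tbx3* from -0.69 (without HFS replicate 1; -0.29 without CS replicate 1) to 1.22 and of *Slc2a1* from -0.13 to 0.04 (without HFS replicate 2). *Slc2a1* was at 0.08 without CS replicate 2 and HFS replicate 2 and at 0.07 by DESeq2 without them. The causes were not tested.

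The replicate numbers of the titles showed no pairing of the libraries. Same-numbered CS and HFS libraries correlated at -0.12 to 0.05 in their deviations, and 1 library correlated best with its own number. The fit with the replicate block called 0 genes, with 510 at an unadjusted p under 0.05. The deposited files number some libraries differently. By those numbers CS replicate 2 and HFS replicate 3 match, and they correlated at -0.04. No fit was made with a block by those numbers.

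With 3 libraries a group, which genes were called turned on single libraries. Rats of both runs of the experiment are not told apart in the labels, so a batch could not be fitted. Genes without a symbol, most of those tested, are in no list, and lists drawn from the study's tables cannot describe the genes outside them.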
